A study of Homo sapiens with 6 samples.

Results

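The genes described here make, cut and bind hyaluronan, a long sugar polymer of the space around cells. The 9 listed genes were chosen by function: the synthases HAS1, HAS2 and HAS3, the breakdown genes CEMIP, CEMIP2, HYAL1 and HYAL2, and the receptors CD44 and HMMR. Of these, 7 were measured, out of 18417 genes in all, and the levels of HAS1 and HYAL1 are not analysed here. Each measured gene had 1 probe set that named it alone, so the rule by which probe sets were selected on their highest mean over the 6 arrays removed none of theirs. The genes were proposed with earlier results of the same arrays known, so their changes are a description and not independent evidence. The samples were RNA of A375, an established human melanoma cell line. One group of 3 arrays came from cells kept for 24 h in vehicle (0.1% DMSO), and the other 3 from cells given 10 µM vemurafenib for 24 h, a melanoma drug that inhibits a kinase upstream of ERK. Each dish of a group came from a different stock of cells on a different day, and the dishes of one stock formed a pair across the groups, which the test did not use because the labels do not name the pairs.

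Hyaluronan is extruded through the cell membrane by the synthases, which join 2 UDP-sugars made in the cytosol. Outside the cell its cutting is ascribed to CEMIP, CEMIP2 and HYAL2, and the pieces are then taken up and finished off in lysosomes. CD44 is its main receptor on the surface of many cells, melanoma cells among them. HMMR binds hyaluronan too, but inside dividing cells it is a protein of the mitotic spindle.

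With vemurafenib, CEMIP fell 10.1-fold, CEMIP2 2.04-fold, HMMR 2.01-fold and HAS2 1.40-fold as ratios of array values. HAS3, HYAL2 and CD44 did not pass the test. Thus 4 of the 7 measured genes were lower, 0 were higher, and 3 of the 4 were at least 2-fold lower. A gene passed when its limma p, adjusted over all 18417 genes by the Benjamini-Hochberg method, was under 0.05. By that rule 22.2% of all genes were lower, 23.2% higher and 45.5% changed in either direction, and 2.62% were lower by at least 2-fold. These were 4090 lower and 4281 higher genes, a split that became 5630 and 3682 when each array was centred on the median of the genes tested. At an unadjusted limma p under 0.05, 4 of the 7 genes were lower and 0 higher. The shares over all genes at that unadjusted threshold are not given, here or for the marker and gene lists below. The median log2 change of the 7 genes was -0.49, and that of all genes was -0.05.

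**Figure D1:**
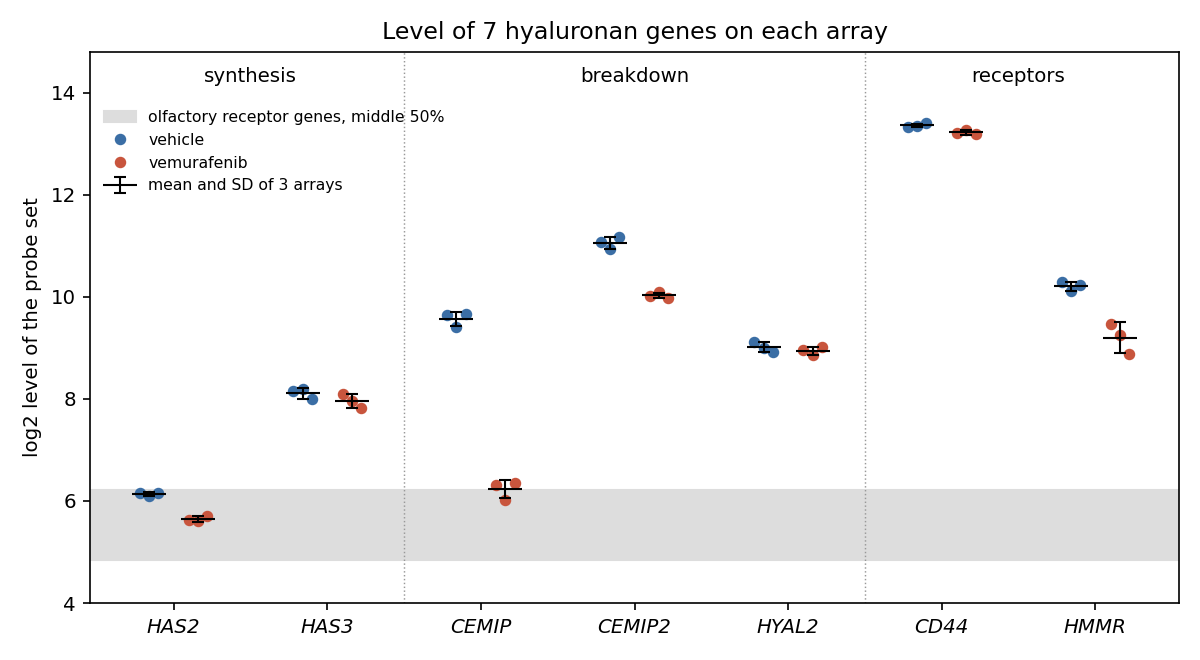
Log2 level of each of the 7 genes (vertical axis) on the 3 vehicle and 3 vemurafenib arrays, each point 1 array, with the mean and SD of 3 arrays in black. The grey band holds the middle 50% of 341 olfactory receptor genes, from 4.85 to 6.21. CEMIP goes from a mean of 9.57 to the upper edge of the band at 6.23, and HAS2 lies inside the band in both groups.

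The array medians lay between 7.69 and 7.73 on the log2 scale, and RMA as usually run sets them alike. Arrays carry no read depth, and their number limits the precision. Beside the marker counts that follow stand the shares over all genes, 22.2% lower and 23.2% higher. Of 9 melanoma and pigment cell markers 5 rose. SOX10 stood at 11.48 in vehicle and 11.78 with vemurafenib and MITF at 10.17 and 10.91. TYR, TYRP1 and MLANA lay between 5.17 and 5.78 in both groups, levels at which 341 olfactory receptor genes, silent in most cells outside the nose, also lay (quartiles 4.85 and 6.21), so that such levels cannot be told from background. Among markers of cells that also carry hyaluronan receptors or synthases, 3 of 8 fibroblast markers rose (DCN, LUM and PDGFRB) and 2 of 9 leukocyte markers fell (LYZ and CD14). That leukocyte count is near the share of all genes that were lower. Of 7 endothelial markers 3 fell and 1 rose, but 1 fell without vemurafenib replicate 1 or 2, and 0 rose without vehicle replicate 2 or 3 or without vemurafenib replicate 2 or 3. The gene that rose, EMCN, also missed the limma threshold with a fixed replicate block (0.0626), array weights (0.0936) and every probe set tested (0.0725). Centring on the median of the genes tested gave EMCN a limma adjusted p of 0.0759. PECAM1, which fell by 0.33, missed the threshold as the mean of its probe sets (change -0.17, limma adjusted p 0.133). EMCN (5.05 in vehicle, 5.31 with vemurafenib) and PECAM1 (5.74 and 5.42) lay between the olfactory receptor quartiles in both groups. DCN did so in vehicle (5.46) and stood at 6.92 with vemurafenib. Background limits these changes. No more than 1 of 6 keratinocyte markers passed in limma, 0 with all arrays (1 at an unadjusted p under 0.05) and 1 without vehicle replicate 1 or 2 or without vemurafenib replicate 2. The summed linear level of the fibroblast list ran from 1462 to 1647 in vehicle and from 2202 to 2501 with vemurafenib, and that of the leukocyte list from 1917 to 2067 and from 1383 to 1511. The endothelial list summed to between 933.7 and 996.4 in vehicle and between 786.9 and 839.1 with vemurafenib. The corresponding ranges were 946.4 to 1093 and 955 to 1137 for the keratinocyte list, and 6062 to 6180 and 8833 to 9537 for the melanoma and pigment cell list. Of the 9 leukocyte markers 6 lay above the olfactory receptor upper quartile, among them LYZ at 10.29 in vehicle and 9.54 with vemurafenib, while PTPRC, the defining leukocyte surface gene, lay at 4.53 and 4.65. The count above that quartile was 6 of 9 for melanoma and pigment cell, 7 of 8 for fibroblast, 4 of 7 for endothelial and 5 of 6 for keratinocyte markers. The part of these markers in the results below was not tested.

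Among the synthases, HAS2 was dim and slightly lower with vemurafenib, and HAS3 showed no change past the test. HAS2, which makes very long chains, read 6.16, 6.10 and 6.15 on the vehicle arrays and 5.63, 5.60 and 5.71 on the vemurafenib arrays. All 3 vemurafenib values lay below all 3 vehicle values. The log2 change was -0.49 (SE 0.07, 95% interval -0.64 to -0.34, n = 3 arrays per group) with a limma adjusted p of 0.000131. Both group means, 6.14 and 5.65, fell between the quartiles of olfactory receptor genes, so HAS2 cannot be told from background in either group, and its fold is no exact ratio of RNA. HAS3, which makes shorter chains, read 8.15, 8.20 and 7.99 in vehicle and 8.09, 7.95 and 7.82 with vemurafenib. These ranges overlapped, and the log2 change was -0.16 (SE 0.09, 95% interval -0.35 to 0.04), with a limma adjusted p of 0.174.

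Of the breakdown genes measured, CEMIP and CEMIP2 fell and HYAL2 did not pass the test. CEMIP binds hyaluronan and promotes its cutting at the cell surface and in early endosomes. It read 9.64, 9.40 and 9.66 on the vehicle arrays and 6.30, 6.03 and 6.35 on the vemurafenib arrays. The groups lay more than 3 log2 units apart, against an SD of 0.14 within vehicle and 0.18 within vemurafenib. The log2 change was -3.34 (SE 0.10, 95% interval -3.56 to -3.11), with a limma adjusted p of 1.71e-09. The vemurafenib mean of 6.23 stood beside the olfactory receptor upper quartile of 6.21, a level that background could give, so the fold is a ratio of array values only.

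CEMIP2, formerly named TMEM2, is a membrane protein related to CEMIP that is reported to cut hyaluronan outside the cell. It read 11.07, 10.94 and 11.18 in vehicle and 10.03, 10.09 and 9.98 with vemurafenib, so every vemurafenib array was lower than every vehicle array, and both groups lay well above the olfactory receptor genes. The log2 change was -1.03 (SE 0.08, 95% interval -1.21 to -0.86), with a limma adjusted p of 1.12e-06.

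HYAL2, a hyaluronidase anchored at the cell surface, read 9.12, 9.001 and 8.92 in vehicle and 8.95, 8.86 and 9.01 with vemurafenib. The ranges overlapped. The log2 change was -0.07 (SE 0.08), with a limma adjusted p of 0.480, and its 95% interval, from -0.25 to 0.10, holds small changes in either direction.

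Both receptors were measured well above the olfactory receptor genes, and HMMR fell while CD44 did not pass the test. CD44 read 13.33, 13.34 and 13.40 in vehicle and 13.21, 13.27 and 13.19 with vemurafenib. The 3 vemurafenib values lay below the vehicle values, as groups that do not overlap did for 5 of the 7 genes and for 55.4% of all genes. The log2 change was only -0.14 (SE 0.07, 95% interval -0.29 to 0.02), with a limma adjusted p of 0.131. The small CD44 difference passed under eBayes with an intensity trend and robust settings (change -0.14, limma adjusted p 0.0128) and when each array was centred on the median of the genes tested (-0.20, limma adjusted p 0.0341). CD44 had a single probe set, so forms of CD44 that differ in their variable exons were not told apart.

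HMMR read 10.29, 10.11 and 10.22 on the vehicle arrays and 9.47, 9.25 and 8.88 on the vemurafenib arrays. Every vemurafenib value was lower, and their SD of 0.30 was the widest of the 7 genes in either group, against 0.09 in vehicle. The log2 change was -1.01 (SE 0.13, 95% interval -1.28 to -0.73), with a limma adjusted p of 5.33e-05. The log2 difference HMMR minus CD44 changed by -0.87 between the groups, at an exact 2-sided permutation p of 0.1, the smallest that 3 arrays against 3 can give (0.1 after adjustment over the 3 pairs of genes computed). The other pairs, CEMIP with CEMIP2 and HAS2 with HAS3, are not read, because background limits CEMIP with vemurafenib and HAS2 in both groups. In bulk RNA, fewer cells that express a gene and less of its RNA per cell cannot be told apart.

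**Figure D2:**
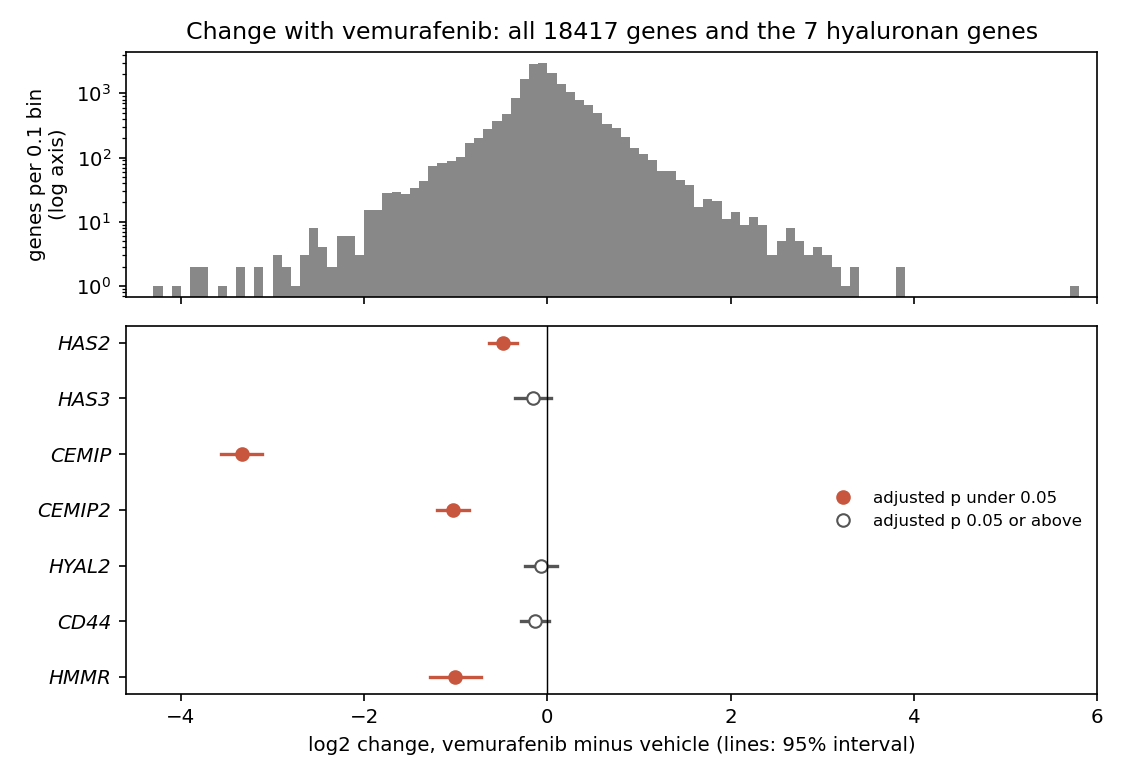
Top, the log2 change (vemurafenib minus vehicle) of all 18417 genes, as the number of genes per bin on a log axis. Bottom, the change of each of the 7 genes with its 95% interval, filled where the limma adjusted p was under 0.05. CEMIP at -3.34 lies in the far lower tail, CEMIP2 and HMMR near -1, and the intervals of HAS3, HYAL2 and CD44 cross 0.

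The promoters of the 3 genes that fell at least 2-fold are shown, and HMMR among them belongs to the cell division machinery. These genes share a direction of change, and whether they share a regulator was not tested. Promoter sequences were found for 8 of the 9 listed genes in RefSeq (GRCh38.p14), all but HAS2. The 250 bases before the start of each gene found were searched on both strands for 5 short motifs. These were TGANTCA (the site of AP-1 factors), TTTGAA (the cell cycle homology region, CHR), CCAAT (the NF-Y box), CACGTG (an E-box) and CCGGAA. The last is a strict form of the ETS site, whose shorter core GGAA was not searched for alone. Capitals mark the matches, which are letters and not shown binding sites. The windows are chr15:80779120-80779369 (plus strand) for CEMIP, chr9:71768514-71768763 (minus strand) for CEMIP2 and chr5:163460382-163460631 (plus strand) for HMMR, each written 5′ to 3′ along the gene.
CEMIP: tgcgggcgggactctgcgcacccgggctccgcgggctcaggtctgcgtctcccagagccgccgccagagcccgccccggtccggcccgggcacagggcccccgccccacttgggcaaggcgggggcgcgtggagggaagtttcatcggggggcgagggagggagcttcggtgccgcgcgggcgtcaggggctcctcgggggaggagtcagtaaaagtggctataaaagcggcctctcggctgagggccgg
CEMIP2: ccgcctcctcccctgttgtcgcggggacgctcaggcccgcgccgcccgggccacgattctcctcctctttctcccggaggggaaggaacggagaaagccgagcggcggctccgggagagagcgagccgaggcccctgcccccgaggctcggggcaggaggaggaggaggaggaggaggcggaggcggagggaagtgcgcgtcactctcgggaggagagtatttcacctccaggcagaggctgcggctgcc
HMMR: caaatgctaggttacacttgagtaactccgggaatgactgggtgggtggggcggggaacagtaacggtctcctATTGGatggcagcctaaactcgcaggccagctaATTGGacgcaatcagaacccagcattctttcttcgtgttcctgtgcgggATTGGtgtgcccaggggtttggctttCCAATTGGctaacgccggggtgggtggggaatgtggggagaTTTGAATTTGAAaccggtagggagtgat

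HMMR's window held TTTGAA 2 times back to back, 17 to 22 and 23 to 28 bases before the start. It held CCAAT 5 times, 1 match on the gene's strand and 4 on the other, between 62 and 177 bases before the start, and the matches nearest to the start overlap in a palindrome. Of all 35116 promoter windows of that length, 13.3% held TTTGAA and 32.0% held CCAAT at least 1 time. The windows of CEMIP and CEMIP2 held none of the 5 motifs, and neither did those of CD44, HYAL1 and HYAL2. The shorter ETS core GGAA does occur in each of the printed windows. HAS1 had 1 TTTGAA, 25 to 30 bases before the start, on the strand opposite the gene. HAS3 had 1 CACGTG, found in 6.34% of all windows, while TGANTCA occurred in 6.57% and CCGGAA in 14.5% of all windows and in none of the 8 searched here. The GC content was 74.4% for CEMIP, 71.6% for CEMIP2 and 53.6% for HMMR, against a median of 58.0% over all windows.

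HMMR was set beside 28 of its partners and other spindle assembly genes, of which 25 fell, 1 rose and 2 did not pass, with a median log2 change of -0.91. Over all genes, 22.2% were lower and 23.2% higher. Large falls were those of the kinesins KIF15 (-1.61) and KIF23 (-1.50) and of FAM83D, which brings a kinase to the spindle (-1.24). The gene that rose was NUMA1, which anchors spindle poles, from 10.44 ± 0.01 to 10.78 ± 0.06 (SD, n = 3; log2 change 0.34, limma adjusted p 0.00193). The list's median on the vemurafenib arrays lay at -0.78, -0.91 and -0.99 relative to each gene's vehicle mean, and HMMR at -0.74, -0.95 and -1.33. HMMR was therefore close to the middle of the list on the vemurafenib arrays 1 and 2, with 15 and 14 of the 28 genes below it, and low in it on array 3, with 5 genes below it.

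**Figure D3:**
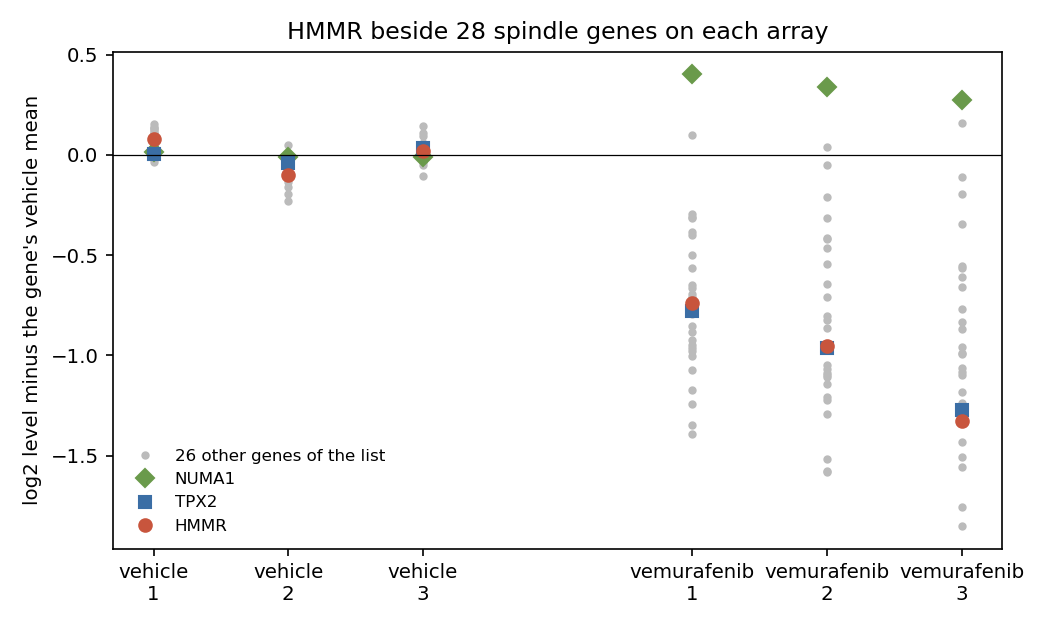
Log2 level on each array minus the gene's own vehicle mean (vertical axis) for HMMR, TPX2, NUMA1 and 26 other spindle genes (grey), 1 point per gene and array. HMMR and TPX2 lie close to each other, at -1.33 and -1.27 on the lowest array, while NUMA1 lies above 0 on the 3 vemurafenib arrays. TPX2 is marked because its profile was the closest to HMMR on these same arrays, so their likeness follows from that choice.

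Likeness was measured over the 6 arrays as the root mean square difference between profiles after each gene's vehicle mean was subtracted. The 3 genes most like HMMR were TPX2 (0.05 log2 units), KIF18A (0.06) and CENPE (0.06). For CEMIP they were DTL (0.14), ADGRF1 (0.14) and ITGB3 (0.25), with log2 changes of -3.19, -3.40 and -3.16. CEMIP2 was most like PUS7, CENPN and SNAPC1 (0.03 each), and CD44 most like PTK2, TRIM33 and NUP210L (0.02 each), genes that did not pass the test either.

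The building blocks of hyaluronan are UDP-glucuronic acid and UDP-N-acetylglucosamine. Of 11 measured genes that supply or carry them, 6 fell and 4 rose, with a median log2 change of -0.21. Over all genes, 22.2% were lower and 23.2% higher. HK2, a hexokinase at the start of glucose use, went from 10.72 ± 0.05 to 9.42 ± 0.07 (SD, n = 3; -1.29), and UAP1, which makes UDP-N-acetylglucosamine, from 11.22 ± 0.04 to 10.40 ± 0.05 (-0.82). The nucleotide sugar transporter SLC35D2 rose by 1.17 and UAP1L1, a relative of UAP1, by 0.65. UGDH, which makes UDP-glucuronic acid, rose by 0.25 (limma adjusted p 0.0207), a call that was lost without vehicle replicate 1 (0.0665), vehicle replicate 2 (0.0614) or vemurafenib replicate 1 (0.0718). UGDH also missed the limma threshold with centring on the median of the genes tested (change 0.19, limma adjusted p 0.0573).

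Of 21 proteins that bind or cross-link hyaluronan, 4 fell, 4 rose and 13 did not pass, shares near the 22.2% and 23.2% over all genes, with a median log2 change of -0.13. The count of those that fell was 2 without vehicle replicate 2 or 3 and without vemurafenib replicate 1 or 2. PTX3, a secreted pentraxin of hyaluronan-rich matrix, went from 8.20 ± 0.16 to 7.12 ± 0.06 (SD, n = 3; -1.08), and C1QBP, a largely mitochondrial protein that binds hyaluronan, changed by -0.53. ACAN, the proteoglycan aggrecan, rose by 0.85 and HABP4 by 0.57.

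Among 7 other receptors of hyaluronan or its fragments, 2 fell, 0 rose and 5 did not pass in limma, and at an unadjusted p under 0.05 3 were lower and 0 higher. The count that fell at the adjusted threshold is near the share over all genes, 22.2% lower beside 23.2% higher. No such share is given for the unadjusted count. TLR4, an innate immune receptor reported to sense hyaluronan fragments, fell 5.77-fold, from 11.29 ± 0.15 to 8.76 ± 0.03 (SD, n = 3; log2 change -2.53, SE 0.08, limma adjusted p 2.53e-09). LAYN, the receptor layilin, changed by -0.24 (limma adjusted p 0.0329), a call lost without vehicle replicate 1 (0.0828), vehicle replicate 2 (0.102), vemurafenib replicate 1 (0.0640) or vemurafenib replicate 2 (0.101). LAYN also missed the limma threshold with the replicate number as a fixed block (0.0638), with every probe set tested (0.0721) and as the mean of its probe sets (change -0.15, 0.190). LYVE1 and STAB2, receptors of lymphatic and liver endothelium, lay between 4.75 and 5.89 in both groups, at levels that olfactory receptor genes also showed. Without vemurafenib replicate 2, 1 of the 7 rose (LYVE1). With array weights LYVE1 was also called higher (change 0.21, limma adjusted p 0.0463).

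Of 9 other hyaluronidases and lysosomal or related breakdown genes, 6 rose and 0 fell in limma, beside 23.2% higher and 22.2% lower over all genes. The counts were the same at an unadjusted p under 0.05, for which no share over all genes is given. The median log2 change was 0.47. HEXA, a subunit of the lysosomal hexosaminidase that trims hyaluronan fragments, went from 9.87 ± 0.10 to 10.68 ± 0.08 (SD, n = 3; 0.81). The protease CTSD rose by 0.66 and IDUA and HPSE, which act on other glycosaminoglycans, by 0.60 and 0.50. OGA and NAGLU rose by 0.47 and 0.37. GUSB, the lysosomal glucuronidase, did not pass, at 9.87 and 9.96. The hyaluronidases SPAM1 and HYAL4 lay between 4.24 and 4.35 in both groups, below the olfactory receptor lower quartile. HEXA is thus the gene acting on hyaluronan fragments among those that rose, while GUSB, SPAM1 and HYAL4 did not pass. The list's count therefore does not measure hyaluronan breakdown, and the list was not tested against CEMIP and CEMIP2.

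Of 19 CD44 partners and sheddases, 8 rose and 2 fell, beside 23.2% higher and 22.2% lower over all genes, with a median log2 change of 0.01. ANK3, an ankyrin that ties membrane proteins to the cytoskeleton, went from 8.68 ± 0.10 to 11.08 ± 0.09 (SD, n = 3; 2.40, 5.26-fold). SPP1, the secreted CD44 ligand osteopontin, went from 8.89 ± 0.08 to 10.84 ± 0.34 (1.95, 3.86-fold). NF2, the cytoskeletal linker merlin, and MET, a receptor kinase that CD44 assists, changed by -0.83 and -0.81. The linker RDX rose by 0.62. Of the proteases that can cut CD44, ADAM17 rose by 0.78 and MMP14 by 0.67, while ADAM10, at 12.16 in vehicle and 12.17 with vemurafenib, did not pass.

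**Figure D4:**
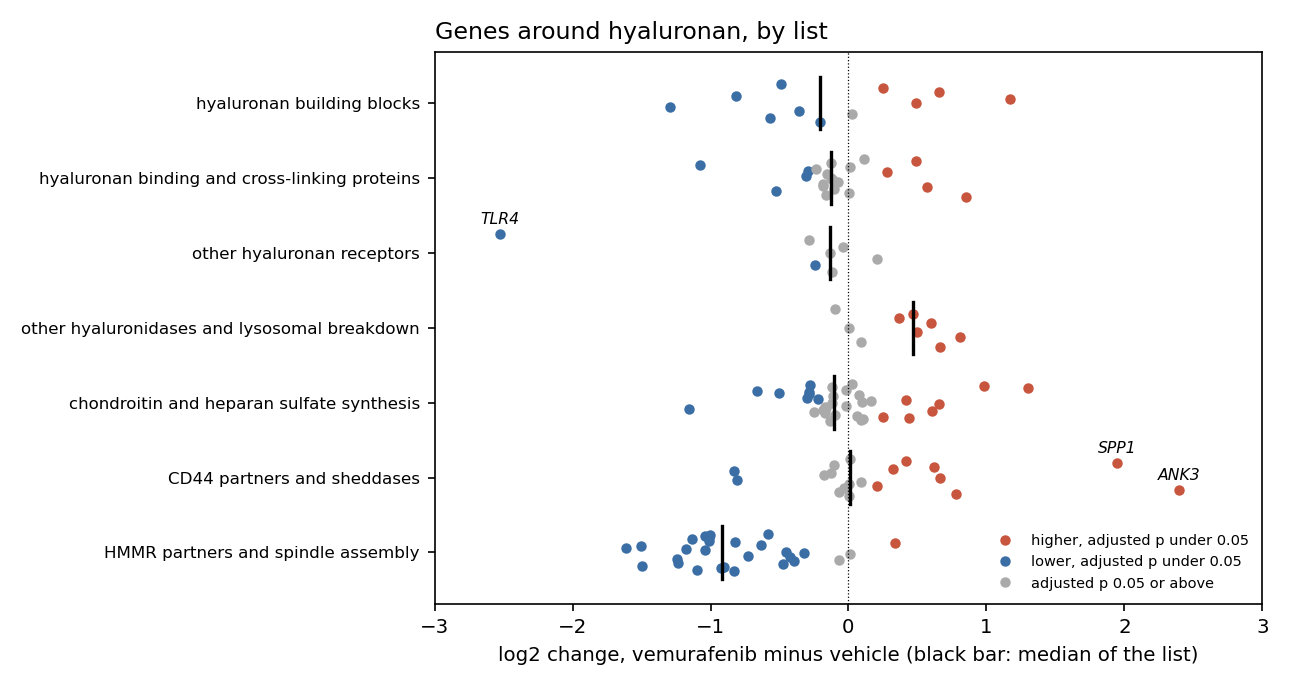
Log2 change (vemurafenib minus vehicle) of each gene in 7 lists around hyaluronan, 1 point per gene, coloured by whether the limma adjusted p was under 0.05, with the list's median as a black bar. The spindle list lies mostly below 0 (median -0.91) and the breakdown list mostly above 0 (median 0.47), and TLR4, SPP1 and ANK3 lie farthest out.

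The enzymes of the other matrix sugars, chondroitin and heparan sulfate, were called about as often as all genes: of 34 measured, 8 fell, 7 rose and 19 did not pass, beside 22.2% lower and 23.2% higher over all genes, and their median log2 change was -0.11. Without vehicle replicate 1, 4 fell. CHSY1, which lengthens chondroitin chains, went from 10.71 ± 0.06 to 9.55 ± 0.05 (SD, n = 3; -1.15), and HS6ST2, a heparan sulfotransferase, changed by -0.66. SULF1, an extracellular enzyme that removes sulfate from heparan, rose by 1.30 and UST, a sulfotransferase acting on chondroitin, by 0.98.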

How the data were processed

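RNA of A375 cells (3 vehicle and 3 vemurafenib dishes) was measured on single-colour Affymetrix arrays, per the labels' protocols. The authors deposited log2 levels per probe set; the submitters' processing notes name RMA and Partek but no version, and neither a genome build nor the level of summarization is given in the sources used here. RMA as usually run normalizes arrays to the same distribution, which hides a change of total RNA and compresses large folds. The table held 33297 probe sets, 0 missing values and 0 columns of other samples. The platform annotation of 2016 gave 1 symbol to 19460 probe sets, several to 1754 and none to 12083. The probe set with the highest mean was kept for each gene (769 genes had more than 1), which left 18417 genes, with no filter on dim ones.

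Changes were tested with limma 3.58.1 in R 4.3.3 (lmFit and eBayes, group as the only term, 2-sided, Benjamini-Hochberg adjustment over all genes, threshold 0.05, prior degrees of freedom 7.08). Pairs of genes were compared by exact permutation over arrays. The members, lists and tests were chosen with earlier results of these data known. Genes named from a list are up to 4 past the threshold with the largest change and the largest against the majority; any other list gene was named after its values were seen. Alternatives were a fixed or random block for the replicate number, centring, renewed quantile normalization, omission of dim genes, means of probe sets, all probe sets, a stricter threshold of 0.01, weights for arrays, robust eBayes with a trend and fits that left out 1 array at a time; centring on the median of the genes tested was chosen after seeing the data. On simulated data of 18417 genes, limma recovered 6% of 50 genes changed by 0.25 log2 units. It recovered 54% of 50 changed by 0.5 and 96% of 50 changed by 1, with 5 false calls. In the real data 45.5% of genes were called, which makes the adjustment less strict there, so these percentages do not carry over to the real comparison. Promoters were searched with Python 3.11.15.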

Additional observations from a re-analysis of the deposited data

How the results depend on the processing

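CEMIP, CEMIP2, HMMR and HAS2 kept their direction and their calls under each alternative in which they were tested, with changes of -3.42 to -3.24, -1.09 to -0.98, -1.14 to -0.85 and -0.55 to -0.46. HAS3 and HYAL2 stayed negative and uncalled throughout. CD44 passed with an intensity trend and robust eBayes (-0.1352) and with centring on the median of the genes tested (-0.1966). Omission of the dimmest 50% of genes left 2 members called lower, because CEMIP and HAS2 were among the genes left out. Centring on the median of the genes tested turned the split of all calls to 3682 higher and 5630 lower, against 4281 and 4090.

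With the replicate block the change of CEMIP was -3.34 and 3989 genes were higher and 3617 lower, with no call of a member changed. The replicate numbers were not used as pairs: the deviations of same-numbered arrays from their group means correlated over genes at 0.14, -0.18 and -0.25, and the labels give a batch letter for 1 array. Arrays of different number correlated at -0.14 to 0.28, the highest being vehicle 2 with vemurafenib 3. No pairing was picked from these values, and the replicate block may cross the true pairs. Of 432 counts of the other lists under alternatives, 55 moved by over 1.5 times, mostly counts of 4 or fewer genes. The number of arrays limits small changes, and levels near those of olfactory receptor genes (HAS2, and CEMIP with vemurafenib) limit the folds.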
